A study of Mus musculus with 18 samples.

Results

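Liver miRNAs of mice given monocrotaline at 330 mg/kg were compared with those of mice given 270 mg/kg. The comparison used 6 of the 18 arrays of the series, namely the 3 miRNA arrays labelled as the higher dose (MCT 330) and the 3 labelled as the lower dose (MCT 270). All probes named for mouse miRNAs were taken, which came to 1122 of the 1178 miRNA probes listed, and 490 of them were bright enough to test.

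The MCT 330 mice were male C57BL/6 mice, 6 weeks old, that received 1 oral dose of monocrotaline at 330 mg/kg after 12 h of fasting, and their livers were taken 48 h later. The MCT 270 mice had the same sex, strain, age, fasting and time and received 270 mg/kg. The control mice, which entered the filter on dim probes and the shared estimate of spread and are given as a baseline, matched in all of these and received saline. Each group had 8 mice, and the array labels name 3 of them per group. Total RNA of whole liver was labelled with the dye Hy3 and hybridised to Exiqon miRCURY arrays, and the mRNA of the series was measured on 9 further arrays labelled as the same mice.

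Monocrotaline, a pyrrolizidine alkaloid of Crotalaria plants, becomes toxic once liver P450 enzymes oxidise it to pyrroles that attach to protein and DNA, and the lining of the sinusoids and the hepatocytes near the central vein are the main sites of injury. A miRNA is a short RNA that guides an Argonaute protein to messenger RNAs by pairing of its seed, the bases near its 5′ end, and usually lowers the output of those messages. Each hairpin precursor can give a 5p and a 3p mature strand, and several hairpins are often cut from a single primary transcript. In bulk liver RNA, fewer cells of a type and less RNA per cell cannot be told apart.

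Mature sequences were taken from the RefSeq table for mouse build GRCm38.p6, which matched 395 of the 490 tested probes and 23 of the 30 that passed the test. The sequences printed belong to miRNAs whose values are given in full, with close relatives that share their seed, because values of such near-identical miRNAs are set side by side below. Capitals mark the seed, bases 2 to 8 from the 5′ end.
let-7e-5p: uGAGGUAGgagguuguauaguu
let-7a-5p: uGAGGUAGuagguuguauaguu
miR-181d-5p: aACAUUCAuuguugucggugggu
miR-181b-5p: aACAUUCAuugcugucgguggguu
miR-27a-3p: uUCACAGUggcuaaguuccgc
miR-27b-3p: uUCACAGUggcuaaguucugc
miR-1843a-5p: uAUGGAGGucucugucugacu
miR-34c-3p: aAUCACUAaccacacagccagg
miR-34b-3p: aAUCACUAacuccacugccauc
miR-137-5p: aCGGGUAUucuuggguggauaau
miR-434-3p: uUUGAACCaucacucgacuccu
miR-3102-5p: gUGAGUGGccaggguggggcug
miR-17-3p: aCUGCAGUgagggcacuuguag
miR-351-5p: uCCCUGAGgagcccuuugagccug

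The hairpin arms were placed on the same build. let-7e-5p lies at chr17:17830366-17830387 on the plus strand, within the span of Spaca6, and miR-181d-5p at chr8:84178759-84178781 on the minus strand, with no other annotated gene over it. miR-1843a-5p lies at chr12:80391654-80391674 (minus) within Dcaf5, miR-34c-3p at chr9:51103044-51103065 (minus) within the spans of Hoatz and Btg4, and miR-434-3p at chr12:109594565-109594586 (plus) within Rtl1. miR-137-5p lies at chr3:118433865-118433887 (plus), and miR-3102-5p at chr7:100882388-100882409 (minus) within Arhgef17. miR-27a-3p lies at chr8:84208727-84208747 (plus), miR-17-3p at chr14:115043721-115043742 (plus) and miR-351-5p at chrX:53053315-53053338 (minus) within the long non-coding RNA C430049B03Rik. The annotation used gives gene spans, not exons, so exonic and intronic positions were not separated.

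The 9 miRNA arrays detected 435 to 510 mouse miRNAs at 30 units or more over background. MCT 330 arrays detected 487 ± 22.5 mouse probes and MCT 270 arrays 459 ± 24.5 (SD, n = 3 each), a difference of 27.7 with overlapping groups (exact permutation test, two-sided, p = 0.2, where 0.1 is the smallest that 3 against 3 allows). At a limit of 15 units the groups did not overlap, with 628, 597 and 615 in MCT 330 and 539, 570 and 542 in MCT 270 (exact permutation test, p = 0.1). Intensities are given below as log2 values after background correction and quantile normalization. Replicates within MCT 330 correlated at r = 0.886 to 0.958 across probes, and within MCT 270 at 0.905 to 0.986. MCT 270 replicate 1 stood apart from replicates 2 and 3, with a standard deviation of log2 differences of 0.754 and 0.711 against 0.286 between those 2. In MCT 330, replicates 1 and 3 were the farthest apart, at 0.838. Nothing in the labels names separate extractions, so p-values measure the spread between these samples, and 3 arrays per group limit the precision.

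Markers of liver cells were present in both groups. miR-122-5p, the dominant miRNA of hepatocytes, had log2 intensities of 12.50, 12.70 and 13.28 in MCT 330 and 12.96, 12.36 and 12.13 in MCT 270. miR-192-5p, another hepatocyte-enriched miRNA, had 12.05, 12.50 and 12.96 in MCT 330 and 12.86, 12.42 and 12.42 in MCT 270. The groups overlapped for both. None of the 16 tested hepatocyte-enriched miRNAs passed the test, beside 6.12% of all tested probes. Their median log2 fold change was -0.07, beside -0.04 over all tested probes.

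Between the doses, 30 of 490 probes (6.12%) passed at an adjusted p under 0.05 in limma, with Benjamini-Hochberg adjustment over all tested probes. At MCT 330, 24 (4.9%) were lower and 6 (1.22%) were higher than at MCT 270. At an unadjusted p under 0.05, 33.9% of probes passed. The 3 arrays of one dose lay entirely beyond those of the other for 37.1% of probes, with 11% higher and 26.1% lower at MCT 330. Of the miRNAs that passed, 14 of the 24 lower and 3 of the 6 higher differed by at least 2-fold. Scaling each array by its median gave 45 calls, 22 higher and 23 lower, which held 21 of the 30. The authors' own scaling gave 70 calls, 39 higher and 31 lower, which held 26 of the 30. Of the 24 lower miRNAs, miR-382-5p, miR-124-3p, miR-329-5p and miR-221-5p entered the tested set only through MCT 270, the group where they are bright, which held for 24 of the 490 tested probes in all, so their calls depend on that filter. Leaving out MCT 330 replicate 1 or replicate 2 left 2 probes, leaving out MCT 330 replicate 3 gave 57, and leaving out MCT 270 replicate 3 or control replicate 2 gave 8 and 5. Without MCT 270 replicate 1, the array that stood apart, 19 passed. When replicates 2 and 3 of each group were averaged into 1 sample, 0 passed, with 105 at an unadjusted p under 0.05 in limma.

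**Figure D1:**
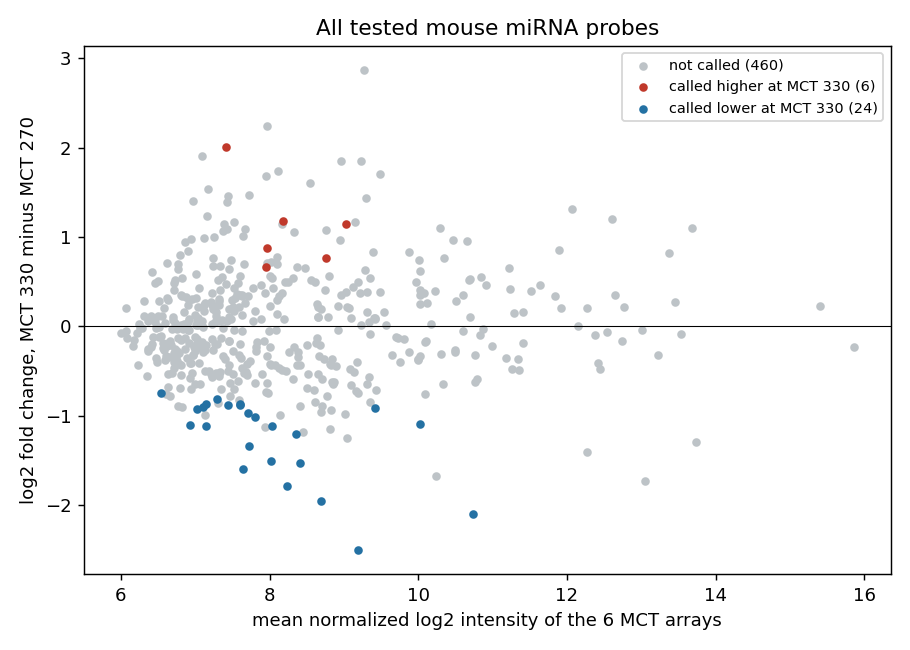
Each point is a tested mouse miRNA probe, with the mean log2 intensity on the horizontal axis and the log2 fold change, MCT 330 minus MCT 270, on the vertical axis. The 24 probes that passed as lower at MCT 330 and the 6 that passed as higher are coloured, and the largest fold change, 2.87 for miR-2137, did not pass.

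miRNAs lower at 330 mg/kg were led by let-7e-5p, miR-137-5p and miR-181d-5p. let-7e-5p, of the let-7 family that holds back growth genes such as Hmga2 and Ras, had log2 intensities of 9.80, 9.59 and 9.63 in MCT 330 and 12.59, 11.16 and 11.61 in MCT 270. All 3 MCT 330 arrays lay below all MCT 270 arrays and near the control mean of 9.28. The log2 fold change was -2.11 ± 0.34 (SE, limma adjusted p = 0.0187, n = 3 per group), so that the signal at 270 mg/kg was 4.31 times that at 330 mg/kg.

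miR-137-5p is the 5p strand of a hairpin best known from neurons, where the 3p strand is the one most studied. Its log2 intensities were 8.52, 8.21 and 7.09 in MCT 330 and 11.44, 10.29 and 9.62 in MCT 270. This was the most negative log2 fold change of the tested probes, at -2.51 ± 0.51 (SE, limma adjusted p = 0.0252). The lowest MCT 270 array still exceeded the highest MCT 330 array, and the control mean was 6.94. The probe for a viral miRNA, mcmv-miR-m108-1-3p, outside the tested set, had a similar profile across the groups and is given with the viral probes.

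miR-181d-5p belongs to the miR-181 family, which is best described in lymphocyte signalling. It had log2 intensities of 7.89, 7.96 and 7.28 in MCT 330 and 10.23, 9.51 and 9.27 in MCT 270. The groups did not overlap, and the log2 fold change was -1.96 ± 0.28 (SE, limma adjusted p = 0.0107). The control mean was 7.35, within the MCT 330 range.

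The smallest adjusted p of all probes belonged to miR-1843a-5p. It had log2 intensities of 7.47, 7.73 and 7.73 in MCT 330 and 9.27, 9.21 and 9.04 in MCT 270. Replicates within each dose lay close together, and the log2 fold change was -1.53 ± 0.18 (SE, limma adjusted p = 0.00501). Together with miR-181d-5p it kept its call in 23 of 25 alternative processings, the most among the 23 miRNAs for which this was counted, while let-7e-5p and miR-34c-3p kept theirs in 21.

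miR-34c-3p is cut from the precursor of a miRNA that p53 induces. Its log2 intensities were 7.46, 7.61 and 6.96 in MCT 330 and 9.70, 9.02 and 8.67 in MCT 270, with a log2 fold change of -1.79 ± 0.30 (SE, limma adjusted p = 0.0187). Its neighbour on chromosome 9, miR-34b-3p, had 8.05, 8.20 and 8.54 in MCT 330 and 9.77, 8.81 and 8.89 in MCT 270. The groups did not overlap there either, but the log2 fold change of -0.89 ± 0.28 did not pass (SE, limma adjusted p = 0.0655). miR-34a-5p, the family member most often tied to p53 in liver, overlapped between the doses, at 9.08, 9.42 and 9.69 in MCT 330 and 8.03, 9.35 and 9.70 in MCT 270. Of the 13 tested p53-induced miRNAs, miR-34c-3p and miR-145a-3p passed as lower and none as higher, beside 4.9% and 1.22% of all tested probes. Their median log2 fold change was 0.09.

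miR-124-3p, a neuronal miRNA, had log2 intensities of 7.20, 6.84 and 6.51 in MCT 330 and 9.14, 8.10 and 8.09 in MCT 270. The log2 fold change was -1.59 ± 0.31 (SE, limma adjusted p = 0.0252), and the control mean was 6.52. It was tested only because all 3 MCT 270 arrays were above the limit. It was the only one of 4 tested neuron-enriched miRNAs to pass, beside 6.12% of all tested probes, and the list's median was -0.48.

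The remaining miRNAs that fell were dimmer or changed less. miR-883b-5p, from a cluster on the X chromosome, had a log2 fold change of -1.51 ± 0.30, and miR-668-3p had -1.21 ± 0.26 (SE, limma adjusted p = 0.0252 and 0.0313). miR-329-5p, miR-3080-5p, miR-466i-5p and the probe shared by miR-466a-3p and its near-identical copies had log2 fold changes between -1.12 and -1.09. miR-30b-3p, miR-5125, miR-382-5p, miR-22-5p, miR-145a-3p, miR-669e-3p, miR-3091-3p, miR-195a-3p, miR-669e-5p and miR-654-3p lay between -1.01 and -0.81. miR-221-5p was not well above background on any MCT 330 array and was at least 1.35-fold lower there (limma adjusted p = 0.0449), and it was tested only because it was above the limit at MCT 270. Its measured log2 intensities were 6.32, 6.08 and 6.12 in MCT 330 and 6.72, 6.90 and 7.13 in MCT 270.

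miRNAs higher at 330 mg/kg were fewer. miR-3102-5p had log2 intensities of 8.57, 9.13 and 7.54 in MCT 330 and 6.62, 6.36 and 6.23 in MCT 270. No MCT 270 array had it well above background, so it was at least 3.57-fold higher at 330 mg/kg (limma adjusted p = 0.0252). The control mean, 7.84, lay within the MCT 330 range. The bound takes the higher of the dimmest detected signal and the probe's own signal on each MCT 270 array.

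miR-27a-3p, known for its action on lipid genes such as Ppara and Lpl, had log2 intensities of 8.45, 8.93 and 8.92 in MCT 330 and 7.53, 7.99 and 7.22 in MCT 270. All MCT 330 arrays lay above all MCT 270 arrays, and the log2 fold change was 1.18 ± 0.26 (SE, limma adjusted p = 0.0352). The control mean was 8.53, close to that of MCT 330.

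miR-351-5p carries the seed of miR-125 and is expressed from an X-linked cluster. It had log2 intensities of 10.08, 9.18 and 9.52 in MCT 330 and 8.65, 8.34 and 8.37 in MCT 270, with a log2 fold change of 1.14 ± 0.27 (SE, limma adjusted p = 0.0429). miR-17-3p, from the cell-cycle associated miR-17 to 92 cluster, had 8.27, 8.69 and 8.26 in MCT 330 and 7.32, 7.61 and 7.67 in MCT 270. Its log2 fold change was 0.88 ± 0.20 (SE, limma adjusted p = 0.0376), with no overlap. miR-299a-5p and miR-664-3p rose by less, with log2 fold changes of 0.77 ± 0.18 and 0.67 ± 0.16 (SE, limma adjusted p = 0.0429 for both).

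**Figure D2:**
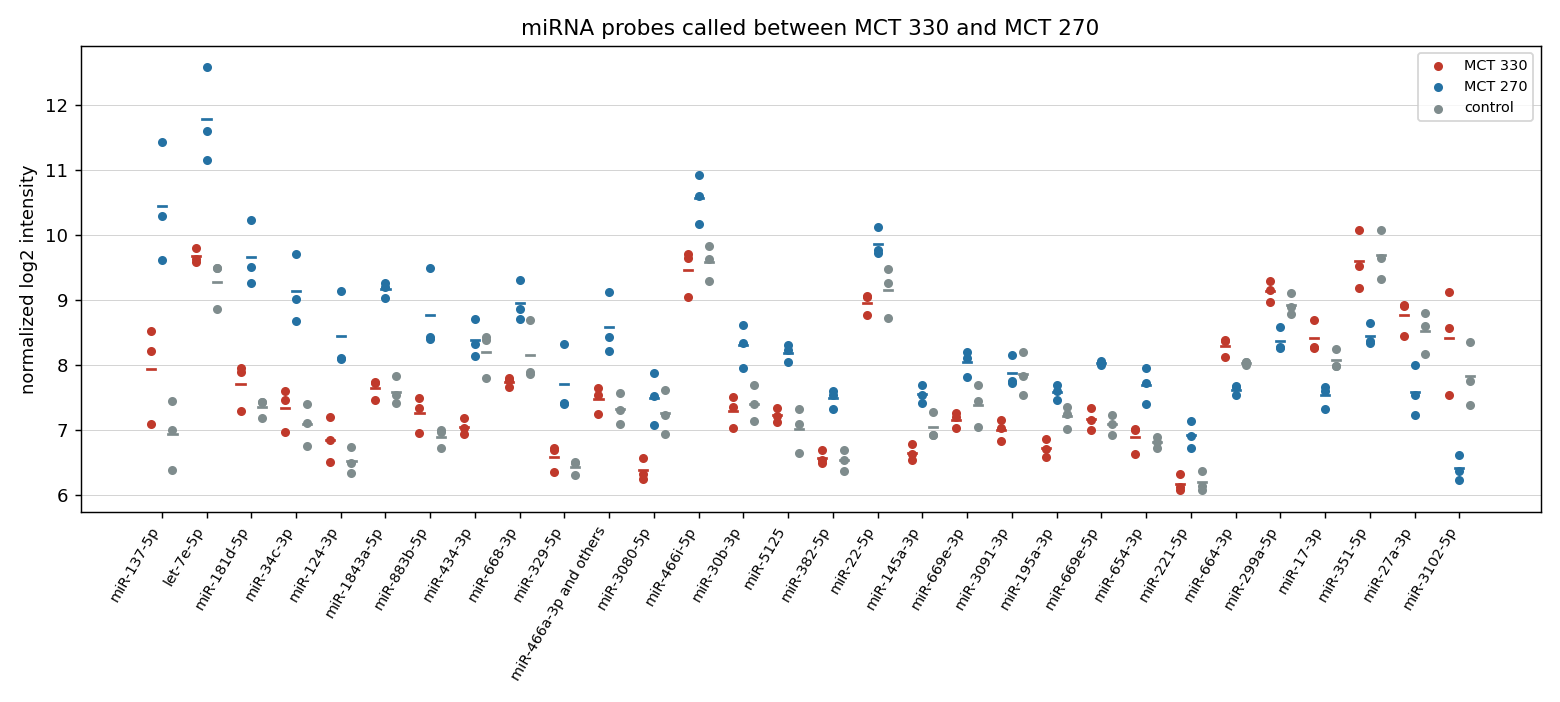
Normalized log2 intensity (vertical axis) of the 30 miRNA probes that passed between the doses, ordered from most to least negative fold change, with a point per array and a bar at each group's mean for MCT 330, MCT 270 and control. The MCT 330 points lie beyond the MCT 270 points for every probe, and for most of the probes the MCT 330 points lie nearer to the control points.

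Against the saline baseline, the 2 doses differed in how far they stood from it. Among the 24 miRNAs lower at MCT 330, the MCT 330 mean was nearer to the control mean than the MCT 270 mean was for 20 (83.3%), and among the 6 higher ones for all 6. Over all 490 tested probes this held for 300 (61.2%). The MCT 330 range overlapped the control range for 17 of the 24 lower and 4 of the 6 higher miRNAs, beside 73.3% of all tested probes. The MCT 270 range overlapped the control range for 3 of the 24 and 0 of the 6, beside 50.6% of all tested probes. miR-434-3p was an exception, with a control mean of 8.20 near that of MCT 270. MCT 270 replicate 1 was the highest array of its group for 20 of the 24 lower miRNAs, beside 236 of all 490 probes. These counts describe probes chosen by the MCT 330 to MCT 270 difference and carry no test.

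Few of the miRNAs that passed had tested relatives with the same seed, and those relatives often did not follow. The 23 sequenced miRNAs that passed had 23 different seeds, but most were the only tested probe with their seed. Only let-7e-5p, miR-181d-5p, miR-27a-3p, miR-3091-3p, miR-34c-3p and miR-351-5p had another tested probe with the same seed. let-7a-5p differs from let-7e-5p at 1 position, yet it had log2 intensities of 8.87, 9.47 and 9.95 in MCT 330 and 8.84, 8.72 and 7.84 in MCT 270. Its log2 fold change of 0.97 ± 0.34 did not pass (SE, limma adjusted p = 0.082), and that of let-7f-5p, 2 positions from let-7e-5p, was 1.05 ± 0.33 (SE, limma adjusted p = 0.0645). The other family members with the let-7 seed, let-7b, c, d, g and i and miR-98, ranged from -0.49 to 0.54. Of the 16 tested probes of the let-7 list, let-7e-5p passed as lower and none as higher, beside 4.9% and 1.22% of all tested probes. The list's median was 0.05.

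The difference between near-identical relatives was taken within each array. let-7e-5p minus let-7a-5p was 0.93, 0.12 and -0.32 in MCT 330 and 3.75, 2.44 and 3.77 in MCT 270, a difference of -3.07 between the doses. miR-181d-5p minus miR-181b-5p, also 1 position apart, was 1.71, 1.60 and 0.71 in MCT 330 and 3.70, 3.06 and 2.77 in MCT 270, a difference of -1.84. However, miR-181b-5p reached 30 units over background on only 1 MCT 330 array and 0 MCT 270 arrays. A change in it could thus hardly be seen, and this pair does not show unequal change. miR-27a-3p minus miR-27b-3p was -1.27, -1.20 and -1.21 in MCT 330 and -2.67, -2.45 and -2.65 in MCT 270, a difference of 1.37. In all 3 pairs the doses did not overlap (exact permutation test, two-sided, p = 0.1 for each pair, the smallest possible with 3 against 3). Since 1 member of each pair was taken because it had passed, these values are descriptive and are not independent support. Whether such probes take up each other's RNA was not tested.

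miR-181a-5p, 4 positions from miR-181d-5p, had a log2 fold change of 0.57 ± 0.24, and miR-181b-5p, near background at both doses, had -0.12 ± 0.23 (SE, limma adjusted p = 0.135 and 0.726). miR-125a-5p and miR-125b-5p, which share the seed of miR-351-5p but differ from it over most of the remaining bases, had 0.35 ± 0.38 and 0.11 ± 0.30. Neither passed.

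**Figure D3:**
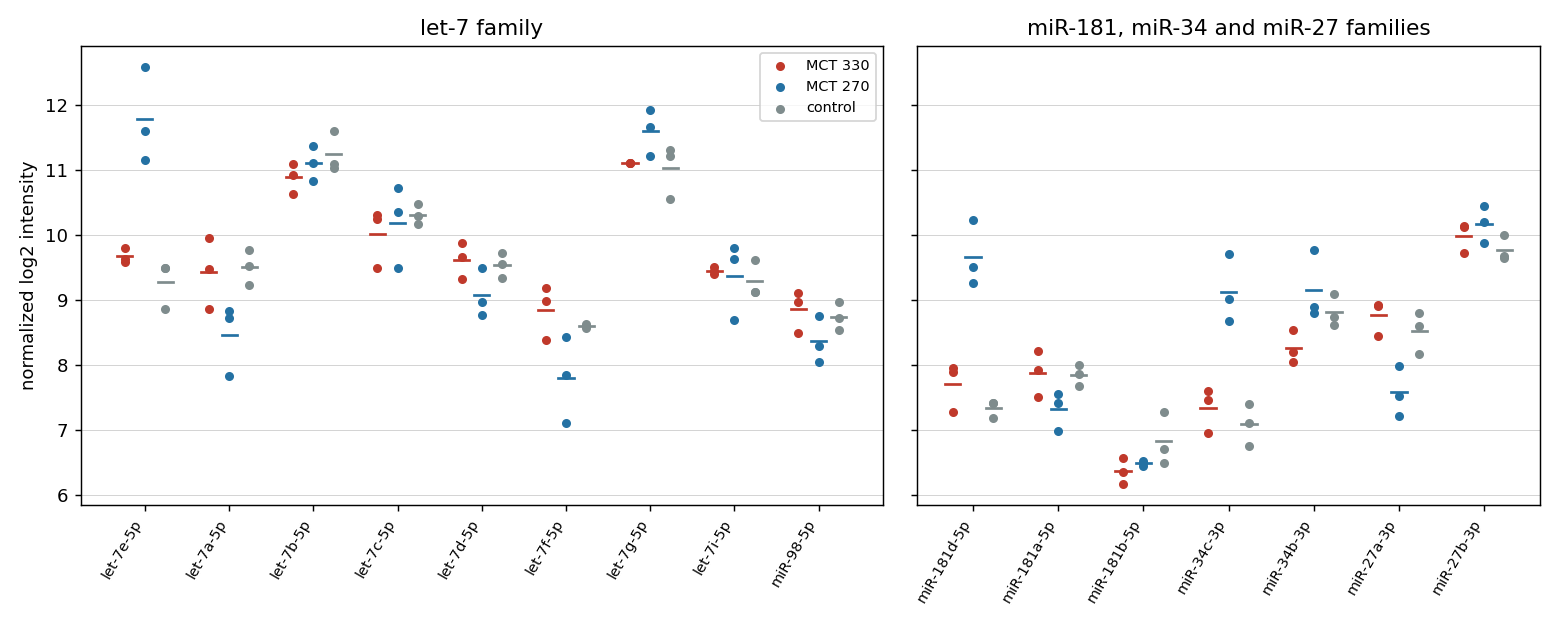
Normalized log2 intensity (vertical axis) of members of the let-7 family (left) and the miR-181, miR-34 and miR-27 families (right), with a point per array and a bar at each group's mean for MCT 330, MCT 270 and control. let-7e-5p, miR-181d-5p and miR-34c-3p have MCT 270 points well above the MCT 330 points, while let-7a-5p and miR-27a-3p lie the other way.

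The strands of a hairpin did not always move together. Both strands were tested for 14 entries among the miRNAs that passed, and the other strand had the same sign of change for 7 of them. The hairpin of miR-669e is counted under each of its strands. The 7 also include the miR-466a-3p probe and miR-466i-5p, of a family whose probes were mostly lower at 330 mg/kg. miR-669e was the only hairpin with both strands past the threshold. miR-22-5p fell by 0.91 on the log2 scale, whereas miR-22-3p, an abundant liver miRNA, had 13.17, 13.91 and 13.68 in MCT 330 and 12.76, 13.51 and 13.68 in MCT 270 and overlapped. miR-221-3p had a log2 fold change of 0.78 ± 0.38, miR-30b-5p 0.40 ± 0.38 and miR-668-5p 0.71 ± 0.25, each opposite in sign to its partner strand and none past the threshold.

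Neighbours in the genome were mixed for some of the miRNAs that passed, and mostly had positive fold changes beside miR-17-3p. miR-125a-5p, cut from the same transcript as let-7e, had a log2 fold change of 0.35. Beside miR-27a-3p, miR-23a-3p had 0.74 ± 0.52, miR-24-2-5p 0.32 ± 0.35 and miR-24-3p -0.48 ± 0.26, none past the threshold. Beside miR-17-3p, miR-17-5p had 0.55 ± 0.34, miR-19a-3p 0.84 ± 0.37, miR-19b-3p 0.35 ± 0.26, miR-92a-3p 0.20 ± 0.26 and miR-20a-5p -0.14 ± 0.20. Over 17 tested members of the miR-17 to 92 clusters and their paralogs, 1 passed as higher and 0 as lower, beside 1.22% and 4.9% of all tested probes. Their median was 0.55 beside -0.04 over all probes.

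In the imprinted Dlk1-Dio3 region of chromosome 12, which holds a large cluster of maternally expressed miRNAs, 40 of 113 probes were bright enough to test. miR-299a-5p passed as higher, and miR-434-3p, miR-668-3p, miR-329-5p, miR-382-5p and miR-654-3p passed as lower, with a list median of -0.15. These are 1 higher and 5 lower of 40, beside 1.22% and 4.9% of all tested probes, and miR-329-5p and miR-382-5p are among those tested only because they were bright at MCT 270. miR-434-3p had log2 intensities of 7.02, 6.94 and 7.19 in MCT 330 and 8.71, 8.33 and 8.13 in MCT 270, a log2 fold change of -1.34 ± 0.23 (SE, limma adjusted p = 0.0187). The stretch chr12:109709060-109747960 held 1 of the higher and 4 of the lower calls among 22 tested probes, beside 6.12% of all tested probes called.

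No miRNA of the leukocyte and erythroid lists passed. Most of them had a higher mean at 330 mg/kg, and miR-155-3p had a lower one. miR-223-3p, which marks neutrophils and monocytes, had log2 intensities of 10.89, 10.17 and 8.99 in MCT 330 and 8.63, 8.56 and 8.55 in MCT 270. miR-142-3p, which marks all blood cell lineages, had 13.91, 13.51 and 12.21 in MCT 330 and 11.93, 12.05 and 12.05 in MCT 270. Neither overlapped between the doses, and MCT 330 replicate 3 lay nearest to MCT 270 in both. The log2 fold changes were 1.43 ± 0.40 and 1.20 ± 0.37 (SE, limma adjusted p = 0.0536 and 0.061).

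Erythroid miRNAs were also brighter at 330 mg/kg in part. miR-451a, the most abundant miRNA of red cells, had 14.39, 14.39 and 13.91 in MCT 330 and 13.36, 12.50 and 13.51 in MCT 270, with a log2 fold change of 1.11 ± 0.35 (SE, limma adjusted p = 0.0655). miR-144-3p, from the same precursor cluster, had 13.51, 13.36 and 11.31 in MCT 330 and 11.53, 10.87 and 11.86 in MCT 270 and overlapped. The probe shared by miR-486-5p and miR-3107-5p had a log2 fold change of 1.09 ± 0.28 (SE, limma adjusted p = 0.053).

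**Figure D4:**
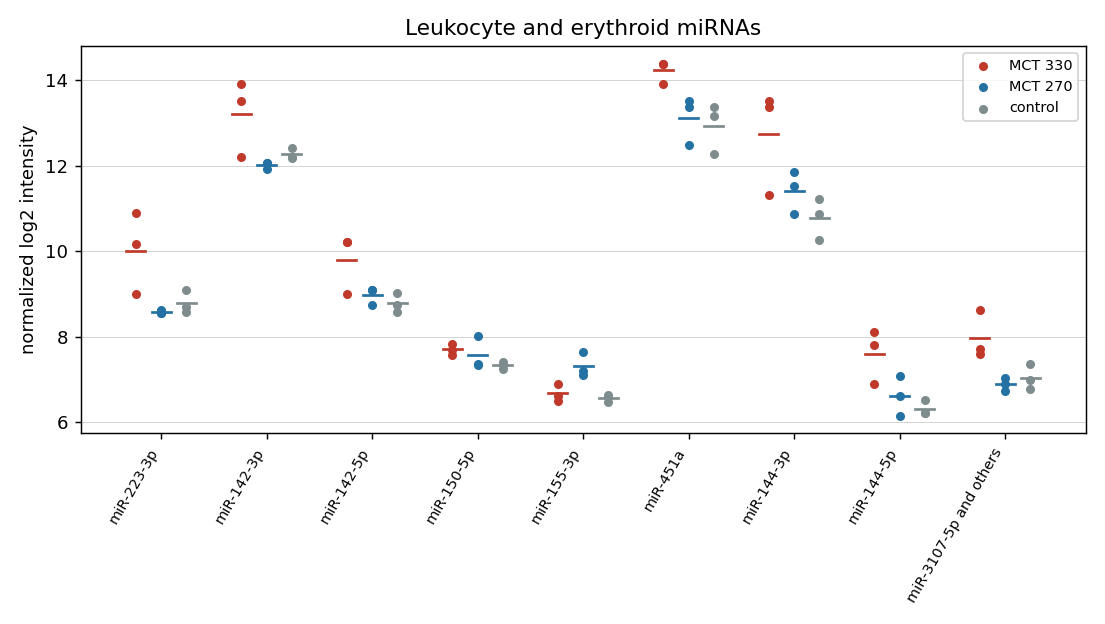
Normalized log2 intensity (vertical axis) of leukocyte and erythroid miRNAs, with a point per array and a bar at each group's mean for MCT 330, MCT 270 and control. miR-3107-5p and others is the probe that also measures miR-486-5p. In miR-223-3p, miR-142-3p and miR-144-3p the lowest MCT 330 point lies at or near the MCT 270 points.

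miR-155-3p, the minor strand of a miRNA induced in activated leukocytes, went the other way, with 6.50, 6.61 and 6.90 in MCT 330 and 7.65, 7.11 and 7.20 in MCT 270. Its groups did not overlap, and the log2 fold change was -0.65 ± 0.20 (SE, limma adjusted p = 0.0645).

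Of 5 tested leukocyte miRNAs, 0 passed and the median log2 fold change was 0.83. Of 4 tested erythroid miRNAs, 0 passed and the median was 1.10, beside 6.12% of all tested probes called. Summed background-subtracted signal of the 5 leukocyte probes was 6620.5 to 16378.5 in MCT 330, against 4381.5 to 6588.5 in MCT 270 and 4749 to 6192.5 in control. For the 4 erythroid probes the sums were 17989.5 to 51214.5 in MCT 330, against 9401.5 to 18022 in MCT 270 and 6915 to 11701 in control. Their part in the miRNAs that passed was not tested.

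Other lists of liver biology held few or no calls, beside 4.9% lower and 1.22% higher of all tested probes. With so few members, these counts say nothing particular about the lists. miR-21a-5p, induced in injured liver, had 13.28, 13.68 and 14.39 in MCT 330 and 13.17, 12.96 and 12.76 in MCT 270, a log2 fold change of 0.82 ± 0.29 that did not pass (SE, limma adjusted p = 0.0862). Of 11 inflammation-induced miRNAs tested, miR-221-5p passed as lower and none as higher, with a median of -0.06. miR-126a-3p, the miRNA that marks endothelium, had 12.21, 12.17 and 12.59 in MCT 330 and 11.12, 13.28 and 12.86 in MCT 270, with overlap. The 2 endothelial miRNAs had a median of -0.19.

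Among 7 mesenchymal and stellate cell miRNAs, miR-145a-3p passed as lower and none as higher, with a median of 0.23. Each count of calls here stands beside 4.9% lower and 1.22% higher of all tested probes. The 5 miR-29 probes, known for restraining collagen genes, had 0 calls and a median of 0.33. miR-33-5p, which lies in an intron of Srebf2 and acts on cholesterol export, had 9.50, 10.04 and 9.59 in MCT 330 and 10.45, 10.50 and 10.45 in MCT 270. Its log2 fold change of -0.76 ± 0.22 did not pass (SE, limma adjusted p = 0.0554). The miR-30 family held miR-30b-3p as its 1 call of 10 tested probes, with a median of 0.22, and the miR-15 and 16 family held miR-195a-3p as its 1 call of 9, with a median of 0.15. The miR-10, 99 and 100 list had 0 calls of 9, a lowest value of 0.08 and a median of 0.34.

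Further lists held few calls, beside 6.12% of all tested probes called. The pancreas, muscle and bile duct epithelium lists had 2, 2 and 3 tested probes, 0 calls, and medians of -0.44, -0.16 and -0.19. The 2 hypoxia-linked miRNAs had a median of 0.43 and 0 calls, with miR-210-3p at 0.69 ± 0.41. The miR-26 list had 3 tested probes and 0 calls, with a median of 0.11, the miR-23, 24 and 27 list held miR-27a-3p as its 1 call of 7, with a median of -0.04, and the miR-181 list held miR-181d-5p as its 1 call of 3, with a median of -0.12.

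Host genes of these miRNAs were read from the mRNA arrays as log2 signal minus each array's 75th percentile, as values with no test. Mir17hg, the transcript that carries the miR-17 to 92 cluster, had -0.28, -0.23 and -0.30 in MCT 330 and -2.28, -2.14 and -1.96 in MCT 270, a difference of 1.86. Mcm7, a DNA replication helicase gene whose intron carries miR-25, had 2.40, 2.31 and 2.33 in MCT 330 and 1.32, 1.68 and 1.70 in MCT 270. Neither overlapped between the doses, as was the case for 78.6% of all mRNA probes above background on the 6 arrays.

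For miR-33-5p the host went the other way. Srebf2, the sterol-regulating transcription factor gene, had -0.63, -0.64 and -0.65 in MCT 330 and -1.15, -1.09 and -1.07 in MCT 270. Mir22hg, the host of miR-22, had -0.42, -0.42 and -0.44 in MCT 330 and -0.06, -0.42 and -0.43 in MCT 270. The groups overlapped, and the difference of -0.13 came from MCT 270 replicate 1. Of 30 host genes above background on all 6 arrays, 12 were higher and 15 lower at MCT 330 with no overlap, beside 28.8% higher and 49.8% lower of all mRNA probes above background on these arrays. With 78.6% of all such probes not overlapping, the count says nothing particular about host genes. The mRNA arrays of a group lay close, however: within MCT 330, replicates 2 and 3 had a standard deviation of log2 differences of 0.0919, against 0.164 and 0.17 between repeated spots of each array. Within MCT 270, replicates 2 and 3 differed by 0.0622, against repeated-spot values of 0.236 and 0.253. In each dose these 2 arrays differed by less than the spot noise and count as 1 sample. MCT 330 replicate 1 differed from the other arrays by 0.181 and 0.19, below its own repeated-spot value of 0.219 and above theirs. Control replicates 2 and 3 differed by 0.076, against repeated-spot values of 0.256 and 0.268. The miRNA arrays are labelled as the same mice, and the miRNA test with n = 3 per group takes them as separate samples. With replicates 2 and 3 of each group averaged, 0 miRNA probes passed.

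**Figure D5:**
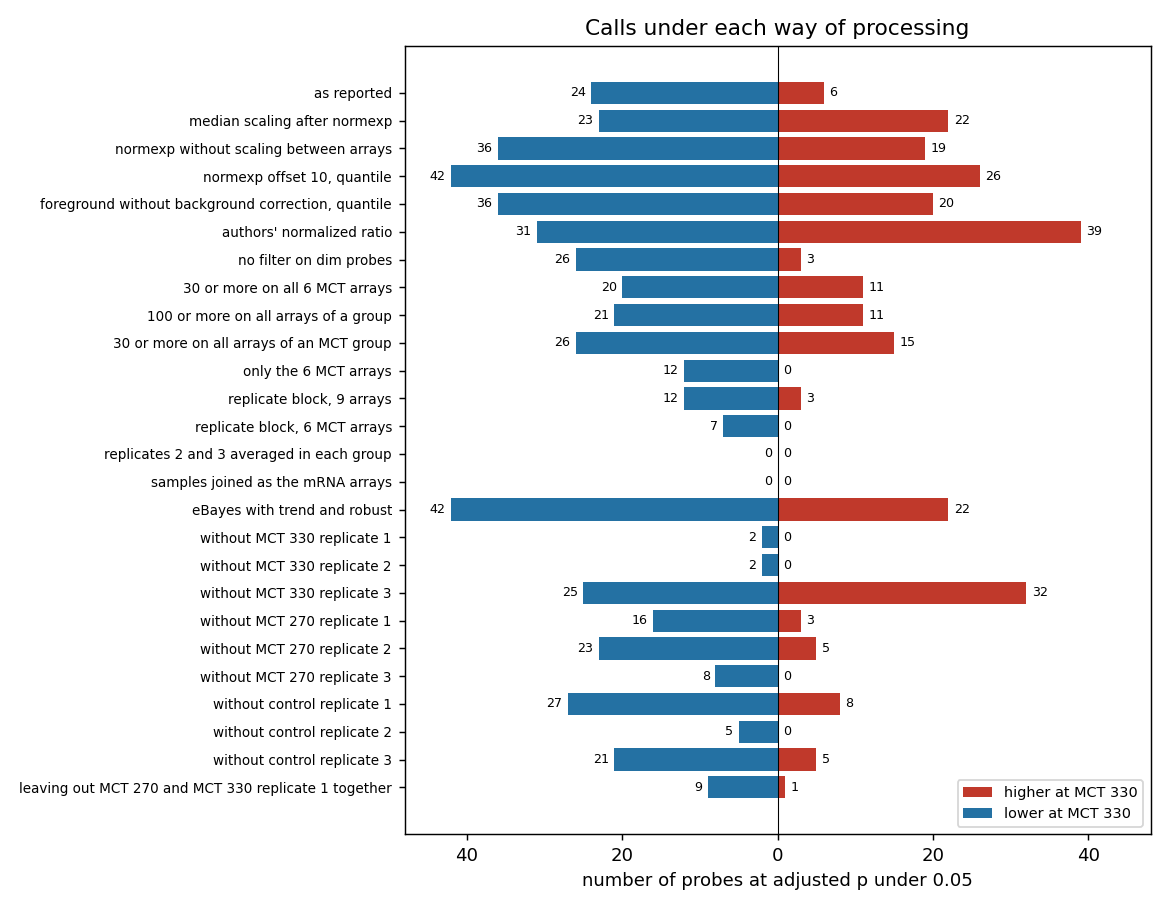
Number of probes past an adjusted p of 0.05 (horizontal axis), lower at MCT 330 to the left and higher at MCT 330 to the right, under each way of processing on the vertical axis. The count runs from 0 when arrays are joined to 70 with the authors' own scaling, and the balance of higher and lower calls shifts with the scaling.

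Among the sequences, the miRNAs lower at MCT 330 had a median of 45.5% G and C, the higher ones 53.5% and all tested miRNAs 47.8%. The median share of U was 35% in the lower, 26.8% in the higher and 27.3% in all tested miRNAs. These shares describe 17 lower and 6 higher miRNAs with a sequence and carry no test.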

How the data were processed

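Liver miRNA of 9 arrays was analysed, with 3 each of MCT 330, MCT 270 and control. Per the file headers, the deposited table holds foreground intensity, foreground minus background intensity, and a ratio in which the authors divided background-subtracted intensity by a median per array. Deposited mRNA intensity was background-subtracted by Agilent Feature Extraction, per the file headers. The miRNA scanner, its software, the slides and the miRBase release are not given in the sources used here, so no batch could be tested. Of the per-sample columns, 0 were left unused.

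Foreground and background were corrected with normexp (offset 50) and quantile normalized over all probes in limma 3.58.1 under R 4.3.3. The 490 mouse probes tested exceeded background by 30 units on each array of some group. All 9 arrays were fitted with lmFit and eBayes, and calls are Benjamini-Hochberg adjusted p-values under 0.05. Fold changes are log2, MCT 330 minus MCT 270. miR-3963 was saturated on 8 of 9 arrays and is given no fold. The same fit was tested on simulated data. Named miRNAs are the 12 highest and 12 lowest called probes with groups that do not overlap, up to 4 per list by smallest p, the 6 brightest, and a set of liver markers; those named by neighbourhood, strand or seed of a called miRNA were added afterwards. The members and lists were chosen with earlier results of these data known.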

Additional observations from a re-analysis of the deposited data

Results flagged for a closer look

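The table also holds 56 probes for viral miRNAs, which the dose comparison does not use. Several were bright in every group, control included. mghv-miR-M1-4-5p had mean log2 intensities of 10.05 in MCT 330, 10.08 in MCT 270 and 10.38 in control. mcmv-miR-m108-1-3p, whose profile was like that of miR-137-5p, had 7.90, 8.29 and 7.19 in MCT 330. In MCT 270 it had 11.31, 9.94 and 10.21, with a control mean of 6.79. What this probe measured was not tested. The probe for mghv-miR-M1-3-3p, a miRNA of murine gammaherpesvirus, was above background on all MCT 330, MCT 270 and control arrays. Its lowest normalized log2 intensity among the MCT 330 arrays was 7.09, just above its highest control value of 7.08, and its means were 7.37 in MCT 330, 8.09 in MCT 270 and 6.79 in control. In background-subtracted signal the groups overlapped, with 72.5 to 156 in MCT 330 and 37 to 85.5 in control, while MCT 270 had 158.5 to 375. It was picked out because every normalized MCT 330 value exceeded every control value on a probe outside the main measurement. Its source was not tested.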

How the results depend on the processing

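The count of 30 miRNAs past the threshold moved with the processing, and the cause was not tested. Without scaling between arrays 55 passed, with a normexp offset of 10 it was 68, without background correction 56, with the authors' ratio 70 and with a trended robust eBayes 64. Fitting only the 6 MCT arrays gave 12. The replicate number as a block gave 15 over 9 arrays and 7 over the 6 MCT arrays; deviations of same-numbered arrays correlated at 0.24, 0.21 and 0.05, so the numbers were not taken as pairs. Averaging replicates 2 and 3 of each group left 0 (105 at an unadjusted p under 0.05 in limma), and joining all 3 MCT 330 arrays as well, which leaves 1 sample assumed to vary like the others, left 0 (58 unadjusted). Leaving out 1 array at a time gave 2 to 57. Leaving out replicate 1 of both doses, chosen after seeing the data, left 10. Median scaling, the other filters and leaving out MCT 270 replicate 2, control replicate 1 or control replicate 3 stayed within 1.5 times. Of the named miRNAs, none that passed changed sign under any alternative run. The difference in detected probes was 5.33 at a limit of 100 and 63 at a limit of 15, with exact permutation p of 0.8 and 0.1, the second being the smallest possible. Faint probes near background and the 3 arrays per group limit these values.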

Other observations

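Probes named for the large repeat-like family of mouse miRNAs miR-297, miR-466, miR-467 and miR-669, many of which lie in an intron of Sfmbt2, were mostly lower at 330 mg/kg. This group was chosen after its values were seen and has no test. Of 49 tested probes, 48 had a negative log2 fold change, and for 37 (75.5%) all MCT 330 arrays lay below all MCT 270 arrays, beside 20.6% of the other 441 tested probes. The median was -0.61 in the group and 0.03 in the others. Of the 49, 4 (8.16%) passed the test, all lower, beside 20 of the 441 others (4.54%) that passed as lower. Whether these similar miRNAs share probe signal was not tested.

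The largest fold change between the doses belonged to miR-2137, which did not pass. Its log2 intensities were 13.06, 10.50 and 8.57 in MCT 330 and 8.30, 7.49 and 7.73 in MCT 270. miR-709, among the brightest probes, had 13.36, 13.17 and 12.76 in MCT 330 and 14.39, 14.39 and 14.39 in MCT 270, with a log2 fold change of -1.29 ± 0.38 (SE, limma adjusted p = 0.0547). Equal values on several arrays arise because quantile normalization gives probes of the same rank the same value.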
